A study of Rattus norvegicus with 8 samples.

Results

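Cartilage matrix genes and the SOX factors that regulate them were followed on 8 one-color arrays of rat calvarial cells. The 10 genes were Col2a1, Col11a2, Col9a1, Col9a2, Col9a3, Acan, Hapln1 and Cnmd, called structural genes here, and Sox5 and Sox9. They are 10 of the 34912 gene names on the rat probes of the array. They were selected on these arrays from how strongly their signals varied together over the 8 arrays, so their differences between replicate numbers are descriptions, and no test of those is read. The genes have 20 probes, 13 for the structural genes and 7 for Sox5 and Sox9. All 20 probes passed the filter on dim signals, which asks for a signal well above background throughout 1 of the groups of 4, and 18 of them met it on all 8 arrays.

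The cells were primary osteoblast-like cells from the calvariae of Wistar rats aged 3 to 5 days, released by serial enzyme digestion, so that each culture was a mixture and not a line. The study asked what a low dose of Er:YAG laser light does to such cells. In 4 irradiated cultures RNA was collected 6 h after 60 s of irradiation at 3.3 J/cm2, and 4 non-irradiated cultures (0 J/cm2) were collected at the same time. Ascorbic acid, β-glycerophosphate and dexamethasone were in the osteoinduction medium that the cells received after the laser step. During that step the confluent layer had no medium over it. Each group has replicate numbers 1 to 4, and both cultures of a replicate number came from the same animal.

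Hyaline cartilage is built from fibrils of type II collagen with types IX and XI, and from aggrecan aggregates held on hyaluronan by link protein. SOX9, together with SOX5 and SOX6, drives most of these genes in chondrocytes, which arise from precursors shared with osteoblasts. Most of the skull vault forms bone directly, but cartilage lies next to it at the skull base and along some sutures in young rodents.

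The replicate numbers differed much more than the groups. The arrays of replicate 1, from 1 animal, stood apart from the other 6 in most of these genes, in both groups. On its non-irradiated and irradiated array 29524 and 29334 probes were well above background, and between 26543 and 30490 on the other 6. Its median processed signals were 72.3 and 84.8, the latter the highest of the 8 arrays, and the others lay between 56.2 and 72.6. Values are log2 of the processed signal after quantile normalization, and for each gene the brightest probe is given first. Differences and folds are taken between arrays for the same probe, since the brightness of different probes cannot be compared as amounts of RNA.

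The collagens of the fibril came first. Col2a1 encodes the chain of type II collagen, the main fibril of hyaline cartilage. Its log2 signal was 9.83, 15.29, 15.82 and 15.07 in non-irradiated replicates 1 to 4 and 10.24, 14.67, 15.88 and 15.11 in irradiated replicates 1 to 4. Both arrays of replicate 1 were far below the other 6, which lay close together, and the groups overlapped. Replicate 1 was 47.3-fold below the mean of the other 3 replicates without irradiation and 31.5-fold below it with irradiation. Because these are bulk cultures, fewer cells of a type and less RNA per cell cannot be told apart.

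Col11a2 encodes a chain of type XI collagen, which sits inside the type II fibril. Its brightest probe gave a log2 signal of 9.39, 14.68, 15.44 and 13.96 without irradiation and 9.57, 14.49, 15.62 and 14.04 with it, in the order of replicates 1 to 4. Replicate 1 was again lowest and replicate 3 highest in both groups. The other 2 probes of Col11a2 also had both arrays of replicate 1 below the other 6, with ranges over the replicate numbers of 4.33 and 2.17 on the log2 scale. A range here is the highest minus the lowest of the 4 replicate means.

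The Col2a1 probe and 1 of the 3 Col11a2 probes, each of 60 bases, are shown for what the array reads of these collagens. The Col11a2 probe shown is not the brightest one, whose values are given above, but the one with the range of 2.17, because it holds the collagen repeat. The Col2a1 probe lies at chr7:136679416-136679475 on the minus strand of the array's build, rn4. The Col11a2 probe covers chr20:4936632-4936946 on the minus strand, 315 bases for its 60, so it crosses a splice junction. Capitals mark its 6 glycine codons, in the repeated Gly-X-Y pattern of a collagen triple helix, and the Col2a1 probe has no marked part.
Col2a1: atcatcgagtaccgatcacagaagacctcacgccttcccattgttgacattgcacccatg
Col11a2: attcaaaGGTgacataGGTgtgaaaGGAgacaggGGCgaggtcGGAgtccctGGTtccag

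Type IX collagen, which coats the fibril, is made of the chains of Col9a1, Col9a2 and Col9a3. The log2 signal of Col9a1 was 10.37, 15.89, 16.47 and 15.34 in non-irradiated replicates 1 to 4 and 10.09, 16.37, 16.59 and 15.25 in the irradiated ones. Col9a2 gave 9.67, 15.49, 16.09 and 14.75 without irradiation and 9.85, 15.37, 16.31 and 14.81 with it. Col9a3 gave 9.56, 14.94, 15.58 and 13.61 without irradiation and 9.58, 15.20, 15.64 and 13.65 with it. All 3 chains were lowest in replicate 1 and highest in replicate 3, and within each replicate number the groups lay close together. Replicate 1 was 46.3-fold below the other replicates for Col9a1, 54.8-fold for Col9a2 and 35.6-fold for Col9a3 without irradiation, and 63.3-fold, 50.0-fold and 38.0-fold below them with irradiation. A second Col9a1 probe ranged over 7.05 and a second Col9a3 probe over 5.43 on the log2 scale, and both were lowest in replicate 1. The second Col9a3 probe was well above background on 7 of 8 arrays, all but irradiated replicate 1, where its log2 signal was 3.70.

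Aggrecan, encoded by Acan, is the large proteoglycan that holds water in cartilage, and Hapln1 encodes the link protein that fixes it to hyaluronan. The Acan probe gave a log2 signal of 6.26, 8.16, 9.12 and 7.65 without irradiation and 6.41, 8.37, 9.15 and 7.95 with it, in the order of replicates 1 to 4. Acan was thus lowest in replicate 1 and highest in replicate 3 like the collagens, with a smaller range of 2.80. The first Hapln1 probe gave 8.01, 11.86, 12.65 and 11.03 without irradiation and 7.81, 12.49, 12.76 and 11.04 with it. Replicate 1 was 14.3-fold below the other replicates for Hapln1 without irradiation and 19.5-fold below with it. The array carries the Hapln1 sequence under 2 probe names, and these 2 readings differed by a median of 0.11 and at most 0.17 on the log2 scale over the 8 arrays. The Acan probe lies in 60 bases spread over 569 bases at chr1:134846027-134846595 on the plus strand of rn4, and it is printed because it is the only reading of Acan on the array. No part of it is marked.
Acan: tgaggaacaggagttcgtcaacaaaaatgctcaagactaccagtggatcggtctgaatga

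Cnmd encodes chondromodulin, a membrane glycoprotein of cartilage that inhibits the growth of vessels. It had the widest range of the structural genes, 7.79 on the log2 scale. Its log2 signal was 7.24, 14.41, 15.12 and 13.15 in non-irradiated replicates 1 to 4 and 7.69, 14.39, 15.40 and 13.20 in the irradiated ones. Replicate 1 was 127-fold below the other replicates without irradiation and 99.7-fold below with irradiation.

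**Figure D1:**
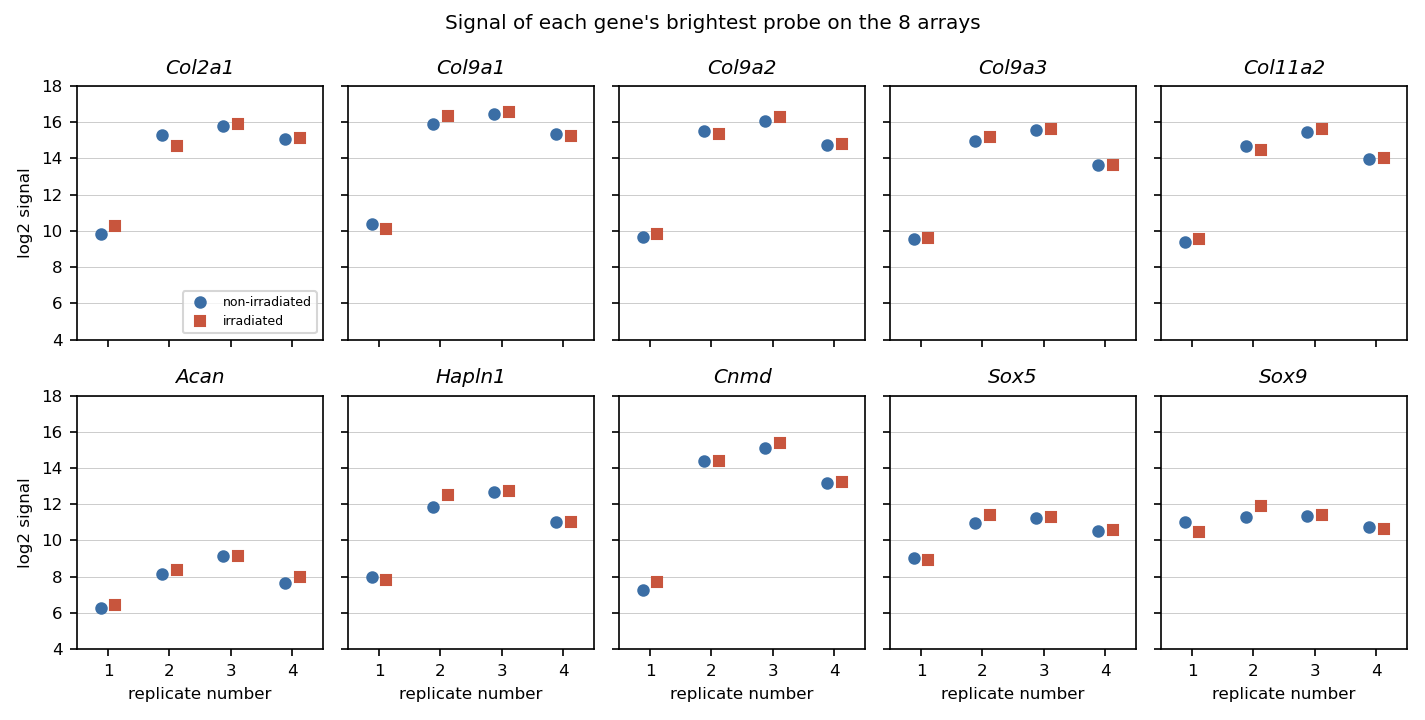
Log2 signal of the brightest probe of each of the 10 genes (vertical axis) against replicate number (horizontal axis), with 1 point per array, circles for non-irradiated and squares for irradiated cultures. The 8 structural genes are lowest in both arrays of replicate 1, with a range of the replicate means between 2.80 and 7.79, while Sox9 ranges over 0.87.

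Over the 8 structural genes, the median range over the replicate numbers was 6.04 on the log2 scale, which is 66.0-fold, and the median over all tested probes was 0.56. The replicates stood in the order 3, 2, 4, 1 from high to low in 7 of the 8 structural genes, the exception being Col2a1, where replicate 4 was slightly above replicate 2. All 13 structural probes had both arrays of replicate 1 below the other 6 arrays, as had 10.0% of all 26250 probes with a value on every array. The opposite pattern, both arrays of replicate 1 above the other 6, was found in 14.2% of those probes and in 0 of the 20 probes of these genes. Since the genes were chosen for this variation, nothing is read from these counts. Among 20644 gene names ranked by their most variable tested probe, Cnmd was number 1, Col9a1 2, Col9a2 4, Col11a2 6, Col9a3 7, Col2a1 8, Hapln1 13 and Acan 120.

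The 6 arrays of replicates 2 to 4 kept part of this variation. Without replicate 1 the median range of the structural genes was 1.48 on the log2 scale, from 0.87 for Col2a1 to 2.08 for Cnmd. Over these 6 arrays, which come from 3 animals, Pearson's r between pairs of structural genes had a median of 0.915 and lay between 0.476 and 0.998 for the 28 pairs of brightest probes. Arrays of a replicate number share their animal and all 8 arrays share a slide, so these are not independent points. No pooled r over the 8 arrays is given for these pairs, because replicate 1 forms a cluster of its own.

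SOX9 is the factor that starts and maintains the chondrocyte program, and SOX5 helps it bind at cartilage genes. The brightest Sox5 probe gave a log2 signal of 9.01, 10.99, 11.25 and 10.53 in non-irradiated replicates 1 to 4 and 8.93, 11.39, 11.31 and 10.57 in the irradiated ones. Sox5 was thus lowest in replicate 1 in both groups, 3.76-fold below the other replicates without irradiation and 4.48-fold below with irradiation. A second Sox5 probe showed both arrays of replicate 1 below the other 6 as well, with a range of 2.29 against 2.31 for the brightest probe. The third was dim, at a log2 signal between 4.28 and 5.48, and ranged over 0.94.

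Sox9 did not set replicate 1 apart in the same way. Its brightest probe gave a log2 signal of 11.01, 11.28, 11.34 and 10.76 without irradiation and 10.46, 11.88, 11.39 and 10.66 with it, in the order of replicates 1 to 4. The highest and the lowest array were both irradiated ones, replicates 2 and 1, and in the non-irradiated group replicate 4 was the lowest. Replicate 1 was 1.08-fold below the other replicates without irradiation and 1.80-fold below with irradiation. The range over the replicate numbers was 0.87 for this probe and 0.11, 1.09 and 0.66 for the other 3 Sox9 probes. Only 1 of the 4 Sox9 probes, the one at base 1605 of the transcript, had both arrays of replicate 1 below the other 6.

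The 4 Sox9 probes start at bases 443, 1508, 1605 and 2276 of the transcript that the array names, and the brightest is the last of them. The 3 others are printed because the irradiation difference of Sox9 turned on which probe was read. They lie on the plus strand of rn4 at chr10:102387172-102387231, chr10:102388891-102388950 and chr10:102388988-102389047. The brightest Sox5 probe, at chr4:180399384-180399443 on the minus strand, is shown with them, and capitals mark the stop codon that ends its open frame. The Sox9 probes have no marked part.
Sox9 at base 443: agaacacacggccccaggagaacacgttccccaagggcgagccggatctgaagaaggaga
Sox9 at base 1508: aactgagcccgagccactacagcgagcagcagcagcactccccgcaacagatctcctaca
Sox9 at base 1605: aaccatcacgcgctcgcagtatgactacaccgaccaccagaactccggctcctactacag
Sox5: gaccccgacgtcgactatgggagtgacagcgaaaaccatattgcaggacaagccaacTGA

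The structural score of an array is the median of the 8 structural genes, by their brightest probes, each centred over the 8 arrays. Over the 6 arrays of replicates 2 to 4, Pearson's r with this score was 0.895, 0.890 and 0.700 for the 3 Sox5 probes, brightest first. For the 4 Sox9 probes, in the same order, it was 0.697, -0.0787, 0.681 and 0.479. The 2 brighter Sox5 probes thus had a higher r than any of the 4 Sox9 probes over these arrays, which come from 3 animals. The difference between Sox5 and Sox9 was not tested. The structural score was -4.08, 1.32, 1.98 and 0.57 in non-irradiated replicates 1 to 4 and -3.86, 1.43, 2.11 and 0.63 in the irradiated ones. A probe may compress large differences, and the response of each probe is not known, so the sizes of ranges of different genes are only set side by side.

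**Figure D2:**
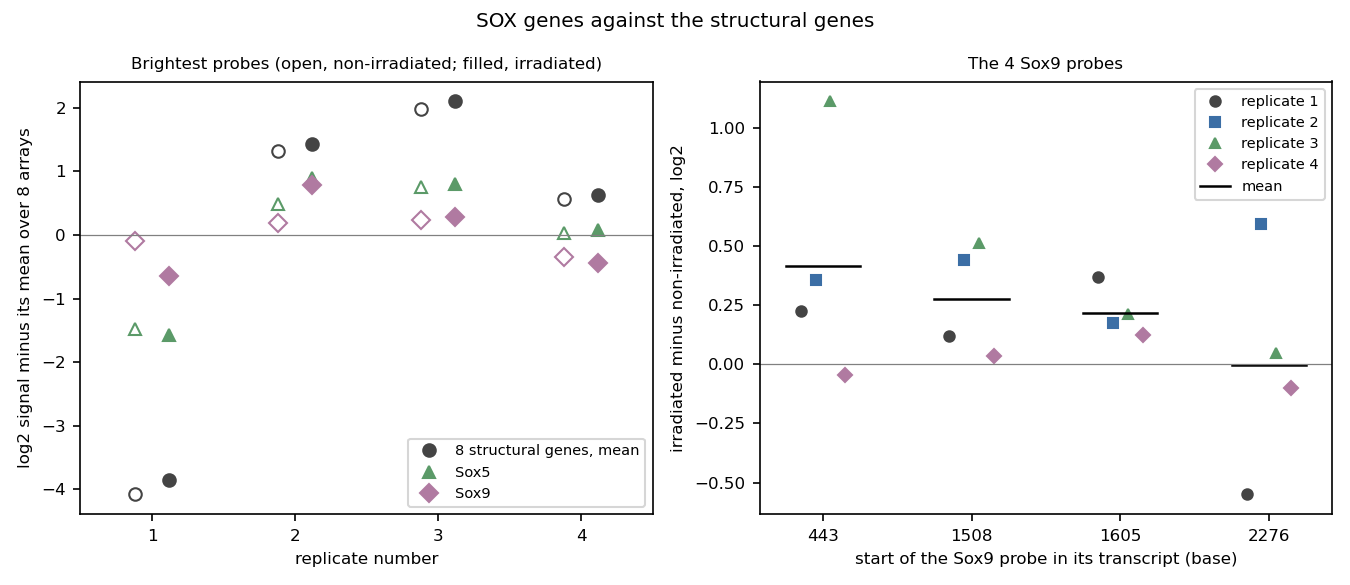
Left, log2 signal relative to the mean over 8 arrays (vertical axis) by replicate number, with open symbols for non-irradiated and filled ones for irradiated arrays. It is given for Sox5, Sox9 and the structural score, which is the median of the 8 structural genes although the panel's key calls it a mean. Right, irradiated minus non-irradiated log2 difference for each of the 4 Sox9 probes, ordered by where they start in the transcript, with 1 point per replicate number and a bar at the mean. The mean is 0.41 at base 443, where pair 3 lies at 1.11, and -0.0012 at base 2276.

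The second comparison asked whether irradiation changed these genes. Across the array, 0 of 26399 probes (0%) were called at an adjusted p below 0.05 with limma and the replicate number as a block, and 676 had an unadjusted p below 0.05. None of the 20 probes of these genes was called, and the adjusted p was 1.00 for each of them. The irradiated minus non-irradiated log2 difference of the structural genes had a median of 0.090 and lay between -0.026 for Col2a1 and 0.19 for Cnmd, in means over 4 pairs. The median over all tested probes was 0.0016. Of the 8 structural genes, 7 had a positive mean difference, all but Col2a1. The sign was not settled for Col9a1, which was at -0.063 with its second probe, -0.031 in the deposited values, -0.0034 with its probes averaged and -0.085 without replicate 2, nor for Hapln1 and Col2a1, at -0.030 and 0.17 without replicate 2. Of the 3 Col11a2 probes 1 was negative, at -0.12.

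By replicate number, the median difference of the structural genes was 0.16, 0.098, 0.11 and 0.045 in pairs 1 to 4, and 6, 4, 8 and 7 of the 8 genes were positive. Cnmd, with the largest mean, differed by 0.19 ± 0.13 (limma's moderated SE, n = 4 pairs), with values of 0.46, -0.017, 0.28 and 0.052 in pairs 1 to 4. The moderated SE, used throughout, borrows from the variance of all probes. Acan differed by 0.18 ± 0.11 and Col9a3 by 0.094 ± 0.11, and these 2 were positive in 4 of 4 pairs. The mean of Col9a3 rests largely on 0.25 in pair 2, and it was 0.042 without replicate 2. Col2a1 differed by 0.41 in pair 1 and -0.62 in pair 2, and by 0.065 and 0.033 in pairs 3 and 4. Hapln1 went the other way in the same pairs, with -0.19 in pair 1 and 0.64 in pair 2. In both genes pair 2 lay farthest from 0 and pair 1 on the other side of 0.

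**Figure D3:**
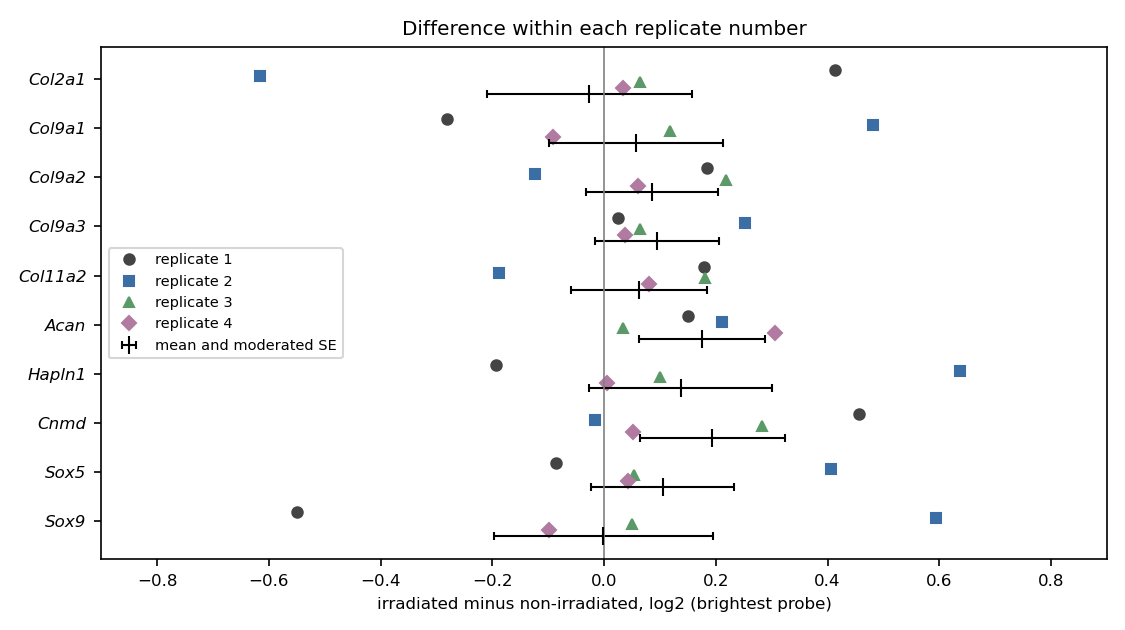
Irradiated minus non-irradiated log2 difference (horizontal axis) of the brightest probe of each gene, with 1 symbol per replicate number and, below them, the mean over 4 pairs with limma's moderated SE. Replicates 1 and 2 lie on opposite sides for Col2a1, at 0.41 and -0.62, and for Sox9, at -0.55 and 0.59, where replicates 3 and 4 lie near 0.

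Sox9, by its brightest probe, differed by -0.0012 ± 0.20 (moderated SE, n = 4 pairs), with -0.55, 0.59, 0.050 and -0.098 in pairs 1 to 4. The pairs of replicates 1 and 2 cancelled each other here. The other Sox9 probes differed by 0.41 ± 0.20 at base 443, 0.28 ± 0.13 at base 1508 and 0.22 ± 0.11 at base 1605, the last 2 in 4 of 4 pairs. The value at base 443 rests largely on 1.11 in pair 3, and without replicate 3 the probes at bases 443, 1508 and 1605 differed by 0.18, 0.20 and 0.22. The adjusted p (limma) was 1.00 for all 4 probes. Sox5 differed by 0.10 ± 0.13 with its brightest probe and by -0.017 ± 0.19 and 0.10 ± 0.14 with the others. Over all 20 probes, 4 were higher in the irradiated array in 4 of 4 pairs, 2 structural and 2 of Sox9, against 3.84% of the 26250 probes of the array.

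Pair 2 is the pair whose arrays were least alike across the array. The deviations of the irradiated array of replicate 2 from its group mean correlated across probes at 0.0553 with those of its own pair and at 0.437 with non-irradiated replicate 1. With pair 2 left out, the mean difference of Sox9 was -0.20 and that of Sox5 0.0038 by their brightest probes, and with pair 1 left out they were 0.18 and 0.17. The structural median was 0.15 without pair 2 and 0.11 without pair 1. The part of that array in these differences was not tested beyond this.

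Genes that resembled these in pattern were looked for over the 8 arrays by Pearson's r, among probes above background on every array. As the 2 arrays of replicate 1 lie apart from the other 6 for the structural genes and Sox5, they weigh heavily in this r, and the r over the other 6 is given as well. The 10 most like the structural score, of 3955 with a range of at least 1, were Mia, BI295963, Aif1l, Tnfrsf26, Foxc2, Eps8l3, Susd5, Smoc1, Gimap6 and LOC100910404. Mia encodes a small secreted protein of cartilage. Its log2 signal was 7.64, 12.04, 12.92 and 11.35 without irradiation and 7.55, 11.94, 12.96 and 11.49 with it, lowest in replicate 1 and highest in replicate 3 like the collagens. The r of these 10 over replicates 2 to 4 alone lay between 0.801 for LOC100910404 and 0.986 for BI295963, in another order than over the 8 arrays.

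Of 13323 probes with a range of at least 0.5, the most like the brightest Sox5 probe were those of ENSRNOT00000064946, Tfcp2l1, Eya1, Msln and Tpd52l1, with an r between 0.953 and 0.988 over replicates 2 to 4. Tfcp2l1, a transcription factor gene, had a log2 signal of 4.62, 9.22, 9.87 and 7.71 without irradiation and 4.26, 9.64, 9.82 and 7.80 with it. The most like Sox9 were Pecr, DV720985, Tmem56, Mcee and Fbp1, with an r between 0.984 and 0.989 over replicates 2 to 4, which encode in part enzymes of fatty acid and sugar metabolism. Pecr gave 11.01, 11.25, 11.21 and 10.88 without irradiation and 10.73, 11.60, 11.31 and 10.92 with it, so that irradiated replicate 2 was highest and irradiated replicate 1 lowest, as for Sox9.

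The 10 genes with the widest range over the replicate numbers held 6 of the structural genes, and the other 4 were BI295963, Thbs4, Tfcp2l1 and Mia. Thbs4 encodes a thrombospondin of tendon and muscle. It ran against the cartilage genes in replicate 1, with a log2 signal of 15.15, 11.92, 11.21 and 9.21 without irradiation and 15.26, 12.03, 11.26 and 8.94 with it.

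The rest of the cartilage program was read from 4 lists, with 58 of 72 genes tested. These lists were drawn up with earlier results of these data known, which limits what their calls can show. The replicate number was tested with limma's moderated F, which called 863 of 26373 probes (3.27%) at an adjusted p below 0.05. Of the 20 probes described above, 14 were called, 12 structural and 2 of Sox5, and nothing is read from this since the genes were selected on the same differences. Of the 58 list genes 13 were called, and 11 of these were lowest in replicate 1. The counts changed when replicates were left out. Without replicate 1, 0 of 26833 probes and 0 of the list genes were called, while 4733 probes had an unadjusted p of the F below 0.05. The count was 5229 without replicate 2, 110 without replicate 3 and 102 without replicate 4, with 26, 4 and 4 of the list genes among them. Fewer arrays were fitted in each case, and a lost call does not mean that the range was lost: over replicates 2 to 4 alone Frzb still ranged over 2.87 on the log2 scale and Snorc over 2.04, while Mia went from 5.34 to 1.52.

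Of 22 other cartilage matrix genes 15 were tested, 8 were called for the replicate number, and 7 of those had their lowest mean in replicate 1. Both arrays of replicate 1 lay below the other 6 in 4 of the 15, Ucma, Mia, Scrg1 and Comp, against 10.0% of all probes. Ucma, a secreted protein of young chondrocytes, gave a log2 signal of 10.42, 14.68, 15.16 and 12.98 without irradiation and 10.49, 14.70, 15.51 and 12.96 with it (adjusted p of the F = 0.00118). Mia (0.000757), Scrg1 (0.00231), Frzb (0.00312), which encodes a secreted inhibitor of Wnt signaling, Comp (0.0137), an organizer of collagen fibrils, and Snorc (0.0179), a chondrocyte proteoglycan, had the adjusted p given in brackets and ranges of 5.34, 3.87, 3.07, 2.70 and 2.07 on the log2 scale. Epyc, a small proteoglycan, was called as well (adjusted p = 0.0415). Replicate 4 was almost as low as replicate 1 for Epyc, with mean log2 signals of 8.18 and 8.10, for Snorc, with 7.15 and 7.12, and for Frzb, with 7.68 and 7.48. Cilp, a matrix protein of deeper cartilage, was the exception and was highest in replicate 1, at 6.44 and 6.52 against 4.70 to 5.99 on the other arrays (adjusted p = 0.0325).

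Not all cartilage matrix genes followed. Col11a1, the partner chain of Col11a2 in type XI collagen and also made outside cartilage, had a log2 signal between 15.27 and 15.89 on all 8 arrays, and Hapln3 ranged over 0.41. Matn3, Cilp2, Clec3a and Vit were not above background on any array, and Matn4, Chadl and Prg4 were above it on 4 of 8 arrays and not tested.

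Among the chondrocyte regulators, 17 of 21 genes were tested and 2 were called, both lowest in replicate 1. They were Prkg2, a kinase of growth plate chondrocytes, with a range of 2.30 (adjusted p = 0.0165), and Wwp2, a ubiquitin ligase, with a range of 1.33 (adjusted p = 0.0466). Both arrays of replicate 1 lay below the other 6 in 4 of the 17, these 2 with Fgfr3 and Gli3, against 10.0% of all probes. Sox6, the partner of Sox5, was not called. Its log2 signal was 9.74, 8.97, 9.31 and 9.19 without irradiation and 9.04, 10.26, 9.38 and 8.76 with it, so that it shared its highest array, irradiated replicate 2, with Sox9. Foxa2 was not tested because it failed the filter: it was above background on the 6 arrays of replicates 2 to 4, at 4.73 to 5.82, and not on those of replicate 1, at 1.55 and 1.51.

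Of the hypertrophic cartilage genes, 8 of 10 were tested and 1 was called, Alpl, the alkaline phosphatase of mineralizing cells, which was lowest in replicate 4 (adjusted p = 0.0200). Col10a1, the collagen that defines hypertrophic chondrocytes, was above background on 3 of 8 arrays, all 3 irradiated, and was not tested. Of the genes of glycosaminoglycan synthesis, which with Has2 include a hyaluronan synthase, 18 of 19 were tested and 2 were called, both lowest in replicate 1. Of the 18 tested, 7 had both arrays of replicate 1 above the other 6 (Chsy1, Chsy3, Chpf, Chst3, Chst11, Slc35d1 and Has2), against 14.2% of all probes. In 4 both lay below, against 10.0% of all probes, and none of the 7 was called. Csgalnact1, which starts chondroitin chains, ranged over 1.92 (adjusted p = 0.0363), and Papss2, which makes the sulfate donor, over 1.46 (adjusted p = 0.0381).

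**Figure D4:**
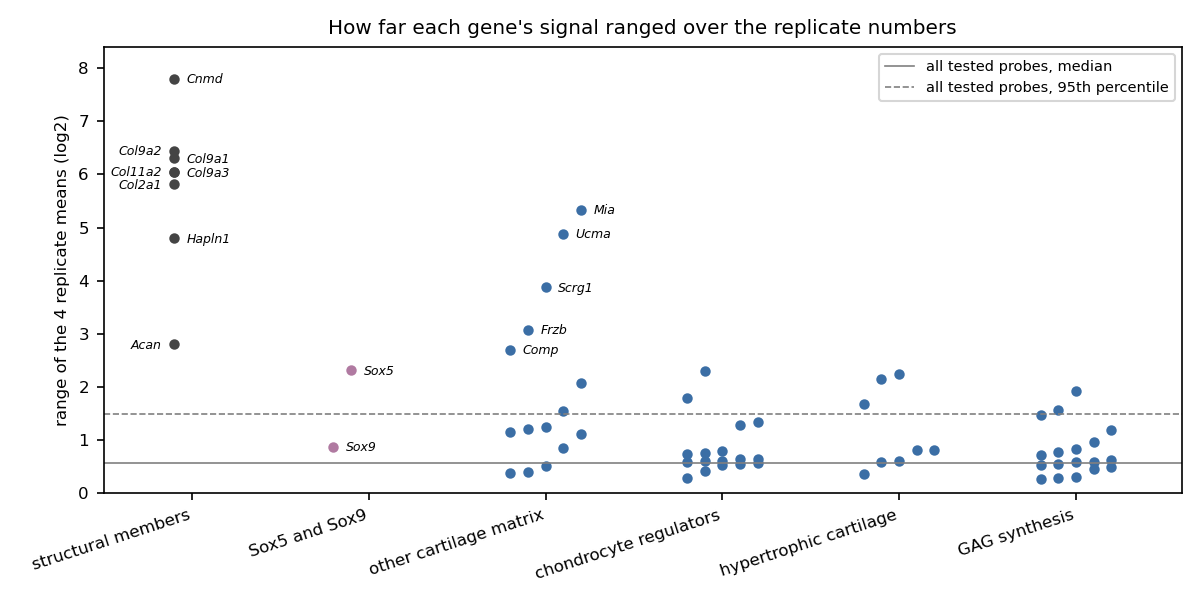
Range of the 4 replicate means in log2 (vertical axis) for the brightest probe of the structural genes, of Sox5 and Sox9, and of the tested genes of the 4 cartilage lists (GAG, glycosaminoglycan), with 1 point per gene. The lines are the median (0.56) and the 95th percentile (1.48) of all tested probes, and Mia (5.34), Ucma (4.88), Scrg1 (3.87) and Frzb (3.07) lie within the span of the structural genes (2.80 to 7.79).

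Irradiation called 0 of the 58 list genes, and 1, Cilp, had an unadjusted p below 0.05. The highest and lowest log2 differences were 0.30 for Cilp and -0.21 for Matn2 among matrix genes, 0.32 for Arid5b and -0.42 for Sox8 among regulators, 0.19 for Mmp13 and -0.16 for Mef2c among hypertrophic genes, and 0.29 for Has2 and -0.32 for B3galt6 among genes of glycosaminoglycan synthesis, over the tested genes. Single pairs weighed heavily in some of these means. Mmp13 differed by 1.72, -1.26, -0.029 and 0.33 in pairs 1 to 4, and Has2 by 1.02 in pair 2 and by -0.038, 0.073 and 0.091 in pairs 1, 3 and 4. The list medians were 0.031, 0.018, 0.058 and 0.0026 in that order.

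Marker lists of cell types were read on the same arrays, and they differed in where replicate 1 stood. The count of markers with both arrays of replicate 1 above the other 6 is to be set beside the 14.2% of all probes with that pattern. Of the 12 osteoblast markers 11 were above background on all 8 arrays, and Col1a1, with the brightest probe, lay between 17.91 and 18.29. The summed signal of the osteoblast list was 528070, 501924, 496672 and 556135 in non-irradiated replicates 1 to 4 and 522856, 437602, 527342 and 527355 in the irradiated ones. This sum is mostly that of Col1a1 and Col1a2. With each gene centred and weighted equally, the osteoblast list stood at 0.39 and 0.51 in replicate 1 and at -0.38 and -0.44 in replicate 4. Both arrays of replicate 1 lay above the other 6 in 4 of the 11 tested markers, Sp7, Bglap, Dmp1 and Dlx5. The other tested markers did not set replicate 1 apart in that way. Spp1 had its lowest non-irradiated signal (14.22) and its highest irradiated signal (14.87) there. Of 10 chondrocyte markers beside the members, 8 were above background on all arrays and Matn3 on none. Their sum, led by Col11a1, was 54440.5, 85156, 114480 and 56855.3 without irradiation and 47587.7, 89555.1, 130967 and 57655.7 with it, lowest in irradiated replicate 1.

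Tendon and ligament markers, 5 of 6 above background on all arrays with Kera on none, summed to 88355.3, 29314.8, 25723.9 and 27935.3 without irradiation and 74603.5, 37010.6, 26594.2 and 25295.7 with it. The brightest probe on average was that of Scx (15.31 and 14.74 in replicate 1, 13.97 to 14.52 on the other arrays), but the rise in replicate 1 is largest in Thbs4, described above. Skeletal muscle markers, 5 of 7 above background on all arrays, summed to 2714.42, 716.053, 320.587 and 272.677 without irradiation and 2053.96, 780.902, 354.963 and 290.823 with it, led by Myh3. Both sums were highest in replicate 1, but only some of the markers were. Both arrays of replicate 1 lay above the other 6 in 3 of 5 tested markers of each list, Scx, Tnmd and Thbs4 for tendon and Myog, Tnnt3 and Myh3 for muscle. Of the 8 arrays Mkx, a tendon marker, was lowest in irradiated replicate 1 (9.06) and Des, a muscle marker, in non-irradiated replicate 1 (5.12), and Ckm was higher in irradiated replicate 2 (6.93) than in irradiated replicate 1 (6.46). Fibroblast and suture markers, 7 of 8 above background on all arrays and led by Pdgfra, summed to between 24254.6 and 41387.6, and 3 of the 8, Prrx1, Dpt and Postn, had both arrays of replicate 1 above the other 6. The others did not set replicate 1 apart in that way, and Dcn had its lowest non-irradiated signal there (10.59).

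The adipocyte sum, with 3 of 7 markers above background on all arrays, Plin1 on none and the brightest probe that of Lpl, was also highest in replicate 1, from 6654.6 there to 2624.35 in non-irradiated replicate 4, and 2 markers, Cebpa and Pparg, had both arrays of replicate 1 above the other 6. The endothelial list had 5 of 7 markers above background on all arrays and Emcn and Tie1 on none, and its sum, led by Vwf, was highest in irradiated replicate 2 at 18174, while 1 marker, Tek, had both arrays of replicate 1 above the other 6, at 8.20 and 7.86 against 5.68 to 6.54. Of 8 macrophage markers, 5 were above background on all arrays and Cd163 on none, and the sum, led by Cd14, lay between 1226.48 and 1733.32. In 3 of these markers, Aif1, Itgam and Tyrobp, both arrays of replicate 1 lay above the other 6. The glia list had 5 of 6 markers above background on all arrays and was led by Ncam1. Both arrays of replicate 1 lay below the other 6 in 2 of its 6 markers, against 10.0% of all probes. In 2 others both lay above. S100b, which chondrocytes also express, was among the low ones, at 12.52 and 12.25 in replicate 1 against 12.94 to 14.66 on the other arrays. The part of any of these cell types in the differences between replicate numbers was not tested.

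**Figure D5:**
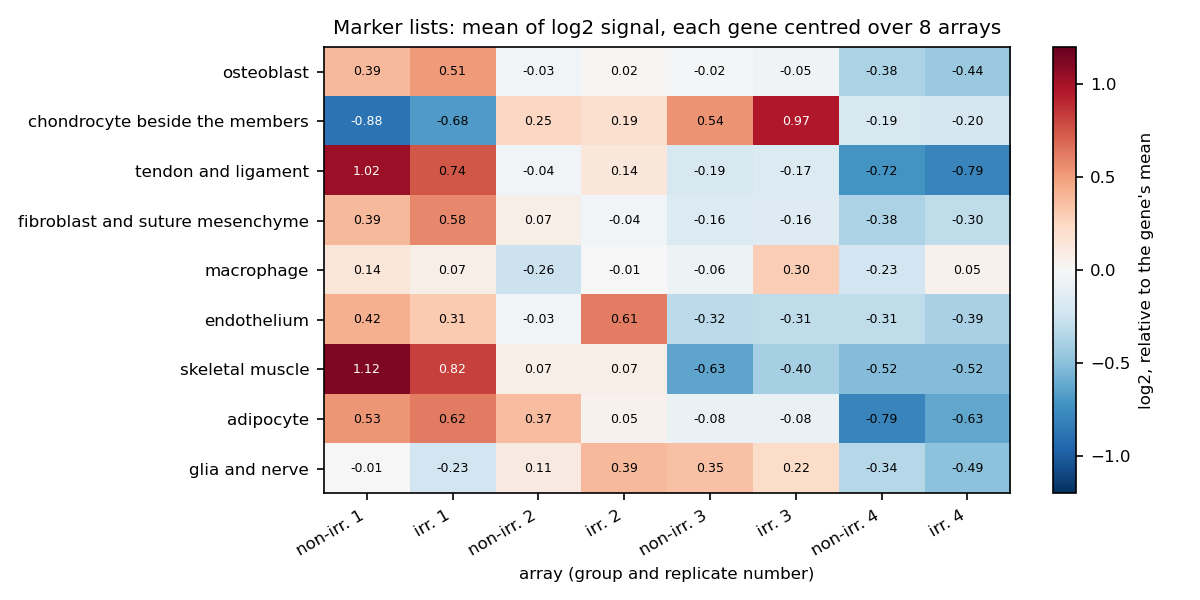
Mean log2 signal of 9 cell type marker lists (rows) on the 8 arrays (columns), each gene centred over the arrays, with the value in each cell. The chondrocyte list stands at -0.88 and -0.68 in replicate 1, where the skeletal muscle list stands at 1.12 and 0.82 and the tendon list at 1.02 and 0.74.

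Promoter sequences were at hand for 5 of the 10 genes, Acan, Hapln1, Col9a1, Col9a2 and Col11a2, from RefSeq on the build GRCr8, as 300 bases of which 250 precede the start. Entries for Col2a1, Col9a3, Cnmd, Sox5 and Sox9 are missing. Since these genes move together, the 5 windows were searched on both strands for 3 words of the kind that SOX proteins bind. The first word was ACAAAG. The second word was AACAAT. The last word was ACAATG, which can overlap the second. ACAAAG is in 18.8% of all 33469 promoters and in 1 of the 5, that of Hapln1. AACAAT is in 11.7% and ACAATG in 13.2% of all promoters, and both are in 0 of the 5. The match in Hapln1 starts 125 bases before the start of the gene and is in capitals in the 250 bases printed here, chr2:22366717-22366966 on the plus strand. It describes the letters of this window and nothing of binding.
Hapln1 promoter: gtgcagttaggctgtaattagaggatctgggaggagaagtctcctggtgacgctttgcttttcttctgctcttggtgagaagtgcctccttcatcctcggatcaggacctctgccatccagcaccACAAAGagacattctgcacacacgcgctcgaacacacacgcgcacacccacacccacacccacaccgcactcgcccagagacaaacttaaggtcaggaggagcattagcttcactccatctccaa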

How the data were processed

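Total RNA of 8 cultures was labeled with Cy3 and hybridized to 1 Agilent array each. Spot intensities were read with Agilent Feature Extraction 11.0.1.1 and deposited by the authors. The processed signal is the spot intensity less its background, detrended across the array, and no step has been taken between arrays. A deposited table of 24029 quantile normalized log2 values served as an alternative. Each array held 58717 spots of 45598 rat probes, with a median processed signal between 56.2 and 84.8. The 4 arrays in each group limit the precision.

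The log2 of the processed signal was quantile normalized across the spots of rat probes, between 446 and 690 outlying spots per array were left out, and spots of a probe were averaged. A probe was tested when over 50% of its spots were well above background throughout the 4 arrays of either group, which held for 26404 probes. Of these 26399 could be fitted for irradiation. The paired fit used limma 3.58.1 (R 4.3.3) with terms for group and replicate number, and gave a two-sided moderated test of irradiation and a moderated F of the replicate number, both with Benjamini-Hochberg adjustment over all probes.

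Replicate number was a block because the names of the scanner files give both arrays of a number the same animal. Deviations from the group means correlated within numbers 1 to 4 at 0.608, 0.0553, 0.570 and 0.749 across probes. All 8 arrays were on 1 slide in 1 scan, non-irradiated ones in columns 1 and 3 and irradiated ones in columns 2 and 4, so column and irradiation cannot be told apart. Replicates 1 and 2 lay in row 1 and replicates 3 and 4 in row 2.

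The members and the gene lists were chosen with earlier results of these data known. The 4 cartilage lists and the 9 marker lists (osteoblast, chondrocyte, tendon and ligament, fibroblast and suture mesenchyme, macrophage, endothelium, skeletal muscle, adipocyte, glia and nerve) were written from textbook knowledge. Named genes were the members, list genes that were called or had the highest or lowest difference in their list, the 10 genes most like the structural score, the 5 most like Sox9 and the 5 most like Sox5, and the 10 with the widest range. Other list and marker genes named were picked after their values were seen. Gene names are those of the array, with Snorc found under an older name through the RefSeq gene table of GRCr8. Probe positions are those of the array on rn4, for which no exon or UTR annotation was at hand. The codons marked in printed probes therefore rest on the open frame of the probe and on knowledge of these transcripts.

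For comparison, the arrays were scaled to their 75th percentile, corrected with normexp (offset of 50) or read from the uncorrected mean signal. The filter was dropped or asked of all 8 arrays, outlying spots were kept, each replicate was left out, the block was dropped, the variance prior was made robust with a trend, the probes of a gene were averaged, and the deposited log2 table was used.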

Additional observations from a re-analysis of the deposited data

Results flagged for a closer look

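In groups of 4 arrays, a value was picked out when its gap to the nearest of the others was too large a share of the group's range by Dixon's 95% limit. The limit was applied to 282 groups, those of the members, of the tested genes of the cartilage and marker lists, of the genes most like the members and of those with the widest range, and it picked out 15, about the 1 in 20 that chance gives. Of the 15 values picked out, 10 were in replicate 1. The members, the genes most like them and those with the widest range were selected for how they varied over these arrays, so nothing is read from the values picked out among them.

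Among the structural genes, non-irradiated replicate 1 was picked out for Col2a1, at a log2 signal of 9.83 where the next array had 15.07, and for the second probe of Col9a1, at 5.22 where the next had 11.42. The Sox5 and Sox9 probes gave no such value. Irradiated replicate 1 was low for Tnfrsf26, at 10.41 against 11.61 for the next array, and for Gimap6, at 5.55 against 7.74, both among the genes most like the structural score.

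In the cartilage lists, Has2, a hyaluronan synthase, was high in non-irradiated replicate 1 at 9.12, where the next array had 7.61, and Papss1 at 9.22, where the next had 8.23. Chst3, a chondroitin sulfotransferase, was high in irradiated replicate 1 at 11.59 against 10.71. Alpl was low in irradiated replicate 4, at 8.61 against 10.35, and so was Sox4, at 11.51 against 12.11, while Sox11 was low in irradiated replicate 3, at 7.13 against 7.63.

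Of the markers, non-irradiated replicate 1 was low for Cd14, at 9.28 against 10.03, and high for Ncam1, at 14.36 against 13.82. Irradiated replicate 1 was high for Tnnt3, at 5.71 against 4.94, irradiated replicate 4 low for Lpl, at 10.37 against 11.14, and irradiated replicate 2 low for Col1a1, at 17.91. The cause of these values was not tested.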

How the results depend on the processing

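With the 10 alternatives that keep all 8 arrays, irradiation called 0 probes each time, also with no replicate block, and between 250 and 1663 had an unadjusted p below 0.05. The structural median difference stayed between 0.080 and 0.098 on the log2 scale, and the median range of the structural genes between 5.77 and 6.08. Changing the filter, the block or the variance prior could not move these values or those of Sox9 and Sox5, which come from the same normalized signals. Sox9 lay between -0.018 and 0.23, the highest with its 4 probes averaged, and Sox5 between 0.064 and 0.12. With no replicate block the structural median was 0.090, the value of the paired fit, and the fit gives no call for the replicate number. The brightest probes of Col11a2, Sox5 and Sox9 are not among the deposited values.

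The calls for the replicate number moved most. In place of 863 probes, normexp correction called 1526, the mean signal 1677, the deposited values 1733, the trend and robust prior 1534, and no filter on dim probes 73. For the cartilage lists 20 genes were called in place of 13 with the trend and robust prior and 5 with no filter, where more probes were tested. For the other changes the cause was not tested.

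With each replicate left out in turn, irradiation called 0 probes, the probes called for the replicate number went from 0 (without replicate 1) to 5229 (without replicate 2), and the list genes from 0 to 26, for the same replicates. Fewer arrays were fitted there. The structural median difference lay between 0.073 and 0.15, the median range between 1.48 and 6.04, Sox9 between -0.20 and 0.18, and Sox5 between 0.0038 and 0.17. Signals near background, as for the second Col9a3 probe in replicate 1, limit how low a value can be read.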
